A study of Mus musculus with 3 samples.

Results

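The 32 genes described here are those of cholesterol and fatty acid synthesis, with their regulators and the genes that move sterol inside or out of the cell, in mouse T helper 1 (Th1) cells. They were named by symbol for their roles, and all 32 were found among the 50600 genes of the deposited count tables. By role, 2 supply cytosolic acetyl-CoA, 7 lead from acetyl-CoA to farnesyl diphosphate, 11 lead from farnesyl diphosphate to cholesterol, 5 make and modify fatty acids, 4 regulate the pathway, 1 carries sterol within the cell and 2 export it. The first 4 roles hold the 25 synthesis enzymes.

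Th1 cells are the class of CD4 T cell whose signature cytokine is interferon gamma. The 3 libraries form 1 group: primary cells of mouse strain C57BL/6NJ, numbered by the labels as biological replicates 1, 2 and 3, with age unknown and sex not collected. The headers of the tables name Th1 cells at 48 h of a time course, and the labels link a protocol for CD4 T cell differentiation. The agents of that protocol are not reported here. The labels call the assay total RNA-seq but link a library protocol for poly(A)+ RNA. The donor identifier is identical for the 3 and no label tells of separate cultures or animals, so p-values across libraries speak only of the spread among these samples, part of which may be technical. With 1 group, the comparisons are between genes within a library and between libraries.

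Cells build cholesterol from acetyl-CoA by way of mevalonate, farnesyl diphosphate and squalene, and build fatty acids from the same acetyl-CoA. Both branches are under sterol regulatory element-binding proteins (SREBPs), which the escort protein SCAP carries out of the endoplasmic reticulum when sterol is low and which INSIG proteins hold back when it is high. Efflux pumps answer in the opposite sense, through the liver X receptors (LXRs) that sense oxidised sterols. A T cell that leaves quiescence makes membrane before it divides, and SREBP activity is known to be needed for that growth.

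Replicate 1 held 4742025 counts, replicate 2 held 50627 and replicate 3 held 3543816. A count of 0 therefore allows up to 0.633, 59.3 and 0.847 CPM (counts scaled to the library total) in replicates 1, 2 and 3, taking 3 counts as the limit, and replicate 2 has very little power for any 1 gene. Genes that share exonic positions with a gene of the other strand took 52.7%, 57.8% and 72.2% of the counts. Levels are given below in TPM, counts per gene length scaled to the library, and the genes without such overlap share less of the counts of replicate 3 than of replicate 1. Fragments were counted on 1 strand only (strand setting 1), and the library kit's strand is not given in the sources used here. Whether a gene's counts come from its own transcripts, from those of the other strand or from both therefore cannot be told apart. This holds for every level given below. The libraries also differed in a sex-linked gene despite the shared donor identifier: Xist had 691, 18 and 3 counts. Intervals and limits cover counting error only. The 6 T cell markers and the Th1 markers Tbx21 and Ifng were all at or above 1 TPM in every library, with a summed T cell marker level of 1207, 722 and 474 TPM. Of the markers of other cells, Cd8a, Ms4a1, Lyz2, Adgre1, Itgam, S100a8, S100a9, Ncr1, Klrb1c, Flt3, Hbb-bs, Alb, Adipoq and Plin1 had no count in any library. Other members of these lists had counts: the CD8 chain gene Cd8b1 21, 1 and 13, the B cell gene Cd79a 10, 0 and 22, the erythroid gene Alas2 20, 0 and 29, the myeloid gene Cd68 12, 0 and 5, and the dendritic cell gene Itgax 1, 0 and 0. The summed level of the 5 myeloid markers was 109, 84.5 and 169 TPM, nearly all of it Csf1r (1096, 10 and 1606 counts), a gene covered by Hmgxb3 exons over 17.8% of its exonic length. The part of these markers in the results below was not tested.

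The start of a gene can show how it is regulated, so 4 promoters are printed for the genes that the results below return to most. Hmgcs1 and Cyp51 were the highest enzymes of the mevalonate and sterol steps, Insig1 is the feedback gene of the pathway, and Abca1 is the efflux pump at the other end of the range. Each window runs 5′ to 3′ on the gene's own strand, from 250 bases before to 50 after the start site, from RefSeq on GRCm38.p6. Capitals mark 3 textbook motifs in either orientation: the sterol regulatory element TCACNCCAC that SREBPs bind, the CCAAT box bound by the trimeric factor NF-Y, and the GC box GGGCGG bound by Sp1 and its relatives. The Hmgcs1 window is chr13:119690101-119690400 on the plus strand, the Cyp51 window chr5:4104648-4104947 on the minus strand, the Insig1 window chr5:28071162-28071461 on the plus strand and the Abca1 window chr4:53159846-53160145 on the minus strand.
Hmgcs1: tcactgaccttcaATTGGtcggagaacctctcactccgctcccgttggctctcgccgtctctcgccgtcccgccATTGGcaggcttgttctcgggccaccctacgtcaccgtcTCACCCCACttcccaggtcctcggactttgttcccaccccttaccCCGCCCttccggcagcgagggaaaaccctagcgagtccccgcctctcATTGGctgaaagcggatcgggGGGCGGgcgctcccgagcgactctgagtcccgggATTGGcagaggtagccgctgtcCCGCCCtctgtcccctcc
Cyp51: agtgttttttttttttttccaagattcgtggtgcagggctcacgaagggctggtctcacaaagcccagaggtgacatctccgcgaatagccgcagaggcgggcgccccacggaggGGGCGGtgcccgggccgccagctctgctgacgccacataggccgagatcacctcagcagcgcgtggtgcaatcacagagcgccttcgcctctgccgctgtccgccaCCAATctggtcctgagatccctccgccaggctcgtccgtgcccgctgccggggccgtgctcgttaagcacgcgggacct
Insig1: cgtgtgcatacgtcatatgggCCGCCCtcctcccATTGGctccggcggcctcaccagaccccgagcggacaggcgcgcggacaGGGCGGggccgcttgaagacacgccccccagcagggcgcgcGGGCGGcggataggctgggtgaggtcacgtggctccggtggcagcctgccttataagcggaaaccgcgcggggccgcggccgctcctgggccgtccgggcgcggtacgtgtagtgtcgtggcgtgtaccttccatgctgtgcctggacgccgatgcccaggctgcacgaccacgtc
Abca1: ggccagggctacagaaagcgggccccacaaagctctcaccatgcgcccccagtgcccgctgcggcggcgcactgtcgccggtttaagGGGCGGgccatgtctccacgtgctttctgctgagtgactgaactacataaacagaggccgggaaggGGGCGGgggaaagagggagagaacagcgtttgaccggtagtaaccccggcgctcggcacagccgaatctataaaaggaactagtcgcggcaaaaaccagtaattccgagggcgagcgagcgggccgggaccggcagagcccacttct
The Hmgcs1 window holds 1 sterol regulatory element, 4 CCAAT boxes and 3 GC boxes. The Cyp51 window holds 1 CCAAT box and 1 GC box, and the Insig1 window holds 1 and 3. The Abca1 window holds 2 GC boxes and neither of the other motifs as spelled here.

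Of the 32 genes, 25 matched an entry of the RefSeq promoter table. Abcg1, Fdft1, Fdps, Scd1, Scd2, Sqle and Stard4 did not. Among the 25, the CCAAT box was found in 20, or 80.0%, against 41.1% of the 27025 genes in the table and 42.8% of the 8276 genes at or above 1 TPM in both replicates 1 and 3. The GC box was found in 21, or 84.0%, against 38.2% and 67.8%. The sterol regulatory element was found in 1 of the 25, Hmgcs1, or 4.0%, against 1.44% and 1.37%. These are counts of letters in a window, given as a description without a test, and a gene with several start sites counts if any of its windows holds the motif.

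Of the 32 genes, 30 stood at or above 1 TPM in both replicates 1 and 3, against 44.3% of 21764 protein-coding genes. The 2 that did not were the efflux pumps Abca1 and Abcg1. In every library, replicate 2 included, 23 stood at or above 1 TPM, against 29.4% of protein-coding genes, and the other 9 had no count in replicate 2. There 1 count was already 5.55 TPM for Scap and 16.2 TPM for Acat2. For these genes, 1 TPM in replicate 2 thus means no more than at least 1 count. Every synthesis enzyme had counts in replicates 1 and 3, so no step of either branch that these 25 enzymes cover was below detection there.

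**Figure D1:**
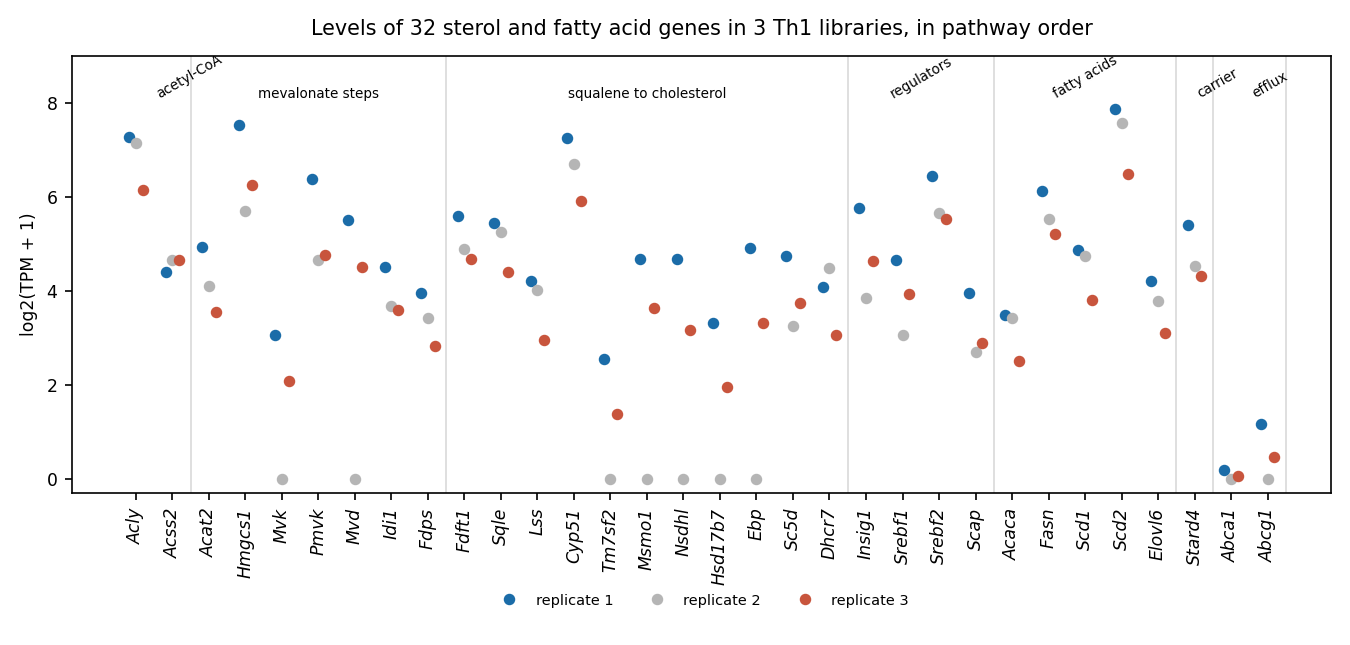
Level of each of the 32 genes, as log2(TPM + 1), in replicates 1, 2 and 3 (1 point per library, no error bars), in pathway order from acetyl-CoA supply to efflux. Synthesis enzymes and regulators stand above Abca1 and Abcg1 in replicates 1 and 3. Tm7sf2 is the nearest, at 1.60 TPM on 11 counts in replicate 3 against 0.374 TPM on 3 counts for Abcg1, with overlapping counting intervals. The 9 points at 0 among the grey points are genes with no count in replicate 2.

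In what follows, 3 values given together are replicates 1, 2 and 3 in that order. Acly makes cytosolic acetyl-CoA from citrate, the entry to both branches. It had 1730, 18 and 729 counts, a level of 153, 141 and 70.1 TPM, and ranked 3 of the 32 by the mean level of replicates 1 and 3. Acss2 makes acetyl-CoA from acetate. It had 438, 6 and 489 counts, a level of 20.1, 24.4 and 24.4 TPM, and so stood below Acly in all 3 libraries. Acss2 was the gene of the 32 whose count was higher in replicate 3 than in the deeper replicate 1. Slc25a1, the mitochondrial carrier that exports the citrate Acly uses, had 249, 0 and 101 counts (53.4, 0 and 23.5 TPM).

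The 7 genes of the mevalonate steps had median levels of 29.7, 11.8 and 11.1 TPM. Acat2 joins acetyl-CoA units in the cytosol and had 162, 1 and 54 counts (29.7, 16.2 and 10.8 TPM). Its level is uncertain where reads could also come from Acat3, a closely related mouse gene. Hmgcs1, the synthase that adds the next unit, had 1279, 4 and 482 counts (185, 51.1 and 75.6 TPM). It ranked 2 of the 32, and its promoter is the Hmgcs1 line above. The 2 kinases that act in turn on mevalonate stood far apart. Mvk, the mevalonate kinase, had 42, 0 and 17 counts (7.33, 0 and 3.22 TPM). Pmvk, the phosphomevalonate kinase, had 303, 1 and 89 counts (82.6, 24.1 and 26.4 TPM). In replicates 1 and 3 Mvk was thus the lowest of the 7, and Pmvk was exceeded by Hmgcs1 alone. Mvd, the decarboxylase, had 177, 0 and 80 counts (44.5, 0 and 21.8 TPM). Idi1, the isopentenyl diphosphate isomerase, had 163, 1 and 77 counts (21.7, 11.8 and 11.1 TPM). Fdps, which makes farnesyl diphosphate, had 130, 1 and 51 counts (14.4, 9.81 and 6.15 TPM). The Fdps value is uncertain, since 26.7% of its exonic length also belongs to Gm43738 on the same strand, which had 0, 0 and 1 counts.

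The 11 genes from farnesyl diphosphate to cholesterol had median levels of 24.6, 8.49 and 9.00 TPM, and 1 of them stood above the rest. Cyp51, the lanosterol 14-alpha demethylase, had 1441, 11 and 517 counts (152, 103 and 59.4 TPM). It ranked 4 of the 32, and its start is the Cyp51 line above. At the head of the sterol branch, Fdft1, the squalene synthase, had 290, 2 and 138 counts (47.4, 28.9 and 24.5 TPM). Sqle, the squalene epoxidase and a known rate-limiting enzyme, had 508, 5 and 221 counts (42.8, 37.2 and 20.2 TPM). Lss, which closes the ring to lanosterol, had 402, 4 and 144 counts (17.4, 15.3 and 6.77 TPM). These 4 genes had counts in every library.

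The enzymes that act after Cyp51 all stood below it in every library, and 5 of them had no count in replicate 2. Msmo1, the methylsterol oxidase, had 324, 0 and 138 counts (24.6, 0 and 11.4 TPM), and 3 counts in replicate 2 would be 20.2 TPM. Nsdhl, the decarboxylating dehydrogenase, had 150, 0 and 45 counts (24.6, 0 and 8.0 TPM). Hsd17b7, the 3-ketosteroid reductase, had 98, 0 and 29 counts (8.97, 0 and 2.88 TPM). For Nsdhl, Hsd17b7 and the 2 others at 0, the level in replicate 1 was below what 3 counts would give in replicate 2, so their counts of 0 were not detectably lower. Ebp, the sterol isomerase, had 144, 0 and 41 counts (29.1, 0 and 9.00 TPM). Tm7sf2, a C14 sterol reductase, was the lowest synthesis enzyme with 36, 0 and 11 counts (4.83, 0 and 1.60 TPM). It shares 15.3% of its exonic length with Vps51 on the same strand (83, 1 and 35 counts). The same reductase step can be carried out by Lbr, the lamin B receptor, which had 513, 5 and 197 counts (50.3, 43.4 and 21.0 TPM), above Tm7sf2 in all 3 libraries. Exons of Dnah14 on the other strand (1932, 32 and 2782 counts) cover 9.24% of the exonic length of Lbr. Sc5d, the C5 desaturase, had 267, 1 and 119 counts (25.6, 8.49 and 12.4 TPM). Dhcr7, which makes cholesterol from 7-dehydrocholesterol, had 200, 3 and 84 counts (16.1, 21.3 and 7.33 TPM).

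The 5 fatty acid genes had median levels of 28.4, 25.6 and 12.9 TPM and held the highest of the 32. Acaca, the acetyl-CoA carboxylase that makes malonyl-CoA, had 374, 4 and 157 counts (10.2, 9.67 and 4.67 TPM). Its mitochondrial relative Acacb, which makes malonyl-CoA that blocks fatty acid oxidation, had 5, 0 and 0 counts. Fasn, the fatty acid synthase, had 1618, 12 and 774 counts (69.0, 45.3 and 35.9 TPM). Of the 2 carboxylases, Acaca was thus the one counted in every library. Scd2, a stearoyl-CoA desaturase, had 2734, 25 and 952 counts (234, 189 and 88.6 TPM), the highest level of the 32 in each library. Scd1, the isoform best known from liver and fat, had 294, 3 and 123 counts (28.4, 25.6 and 12.9 TPM). Elovl6, which lengthens palmitate, had 241, 2 and 96 counts (17.5, 12.8 and 7.57 TPM). The 2 desaturases lie close together on chromosome 19 (mm10), Scd2 at 44293676 to 44306864 on the plus strand and Scd1 at 44394451 to 44407709 on the minus strand.

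The 4 regulators had median levels of 38.9, 10.3 and 19.1 TPM. Srebf2, which encodes the SREBP best known for sterol genes, had 926, 6 and 443 counts (86.7, 49.7 and 45.0 TPM). Srebf1, which encodes the forms best known for fatty acid genes, had 293, 1 and 159 counts (24.3, 7.33 and 14.3 TPM). Insig1, an SREBP target and its inhibitor, had 354, 1 and 146 counts (53.5, 13.3 and 23.9 TPM). Srebf2 led the group in all 3 libraries and ranked 5 of the 32. Scap, the escort, had 232, 1 and 95 counts (14.6, 5.55 and 6.48 TPM). The proteases that release SREBPs were lower: Mbtps1 had 281, 1 and 100 counts (12.5, 3.92 and 4.81 TPM) and Mbtps2 75, 1 and 43 (3.47, 4.09 and 2.16 TPM). The Mbtps2 value is uncertain, since 28.4% of its exonic length also belongs to Yy2 on the same strand, which had no count in any library. Insig2, the other INSIG gene, had 68, 0 and 23 counts (9.14, 0 and 3.36 TPM). Stard4, a soluble sterol carrier and itself a sterol-regulated gene, had 497, 3 and 210 counts (41.6, 22.2 and 19.1 TPM).

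Efflux genes were at the other end. Abca1, which loads cholesterol on lipid-poor apolipoprotein, had 3, 0 and 1 counts (0.135, 0 and 0.049 TPM). Abcg1, which exports sterol to mature lipoprotein, had 11, 0 and 3 counts (1.26, 0 and 0.374 TPM). Their summed count was 14, 0 and 4, against 13545, 104 and 5657 over the 25 synthesis enzymes, a larger set. In replicate 2 a level of up to 12.0 TPM of Abca1 and 30.5 TPM of Abcg1 would give 3 counts, so that library sets no more than these wide limits on efflux. Per library, the median synthesis enzyme stood 4.05, 4.03 and 3.37 above the mean of the 2 efflux genes in log2(TPM + 1), a difference of 3.82 ± 0.39 (SD, n = 3). The 3 differences are all positive, but the genes were grouped with results known and no p is given. In replicate 2 the difference is the synthesis median alone, and without that library it was 3.71. The scale sets its size: with a pseudocount of 0.1 in place of 1 it was 6.07.

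Genes of the LXR axis, which drives efflux, were few in count apart from 1 receptor. Nr1h2, the widely expressed LXR beta, had 94, 0 and 48 counts (13.1, 0 and 7.26 TPM). Nr1h3, the LXR alpha of liver and macrophages, had 2, 0 and 2, and Mylip, an LXR target that degrades lipoprotein receptors, had 3, 0 and 2. Ch25h, which makes the LXR ligand 25-hydroxycholesterol, had 2, 0 and 0 counts, and Cyp27a1, which makes 27-hydroxycholesterol, had none in any library. For Cyp27a1 this allows up to 0.645 TPM in replicate 1.

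Uptake, lysosomal release and storage were represented by 9 further genes, of which 5 reached 1 TPM in both replicates 1 and 3 and 4 in every library. Their median level was 3.67, 0 and 1.87 TPM, against 25.6, 15.3 and 11.4 TPM for the 25 synthesis enzymes. The highest was Npc2, which passes cholesterol out of lysosomes, with 496, 3 and 195 counts (71.0, 38.0 and 30.3 TPM). Lipa, the lysosomal acid lipase, had 89, 1 and 44 counts (14.0, 13.9 and 7.52 TPM). Scarb1, the high-density lipoprotein receptor, had 202, 1 and 69 counts (11.1, 4.86 and 4.12 TPM). Lysosomal release thus had the 2 highest of the 9, while the lipoprotein receptors ranged down to a few counts. Lrp8 had 131, 0 and 48 counts (5.82, 0 and 2.32 TPM), Vldlr and Lrp1 each had 9, 0 and 2, and the fatty acid transporter Cd36 had 8, 0 and 3. Soat1, which esterifies cholesterol for storage, had 77, 1 and 36 counts (3.67, 4.22 and 1.87 TPM), and Soat2, the form of liver and gut, had 5, 0 and 2. Some uptake genes are not in this list, so these values do not describe uptake as a whole.

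**Figure D2:**
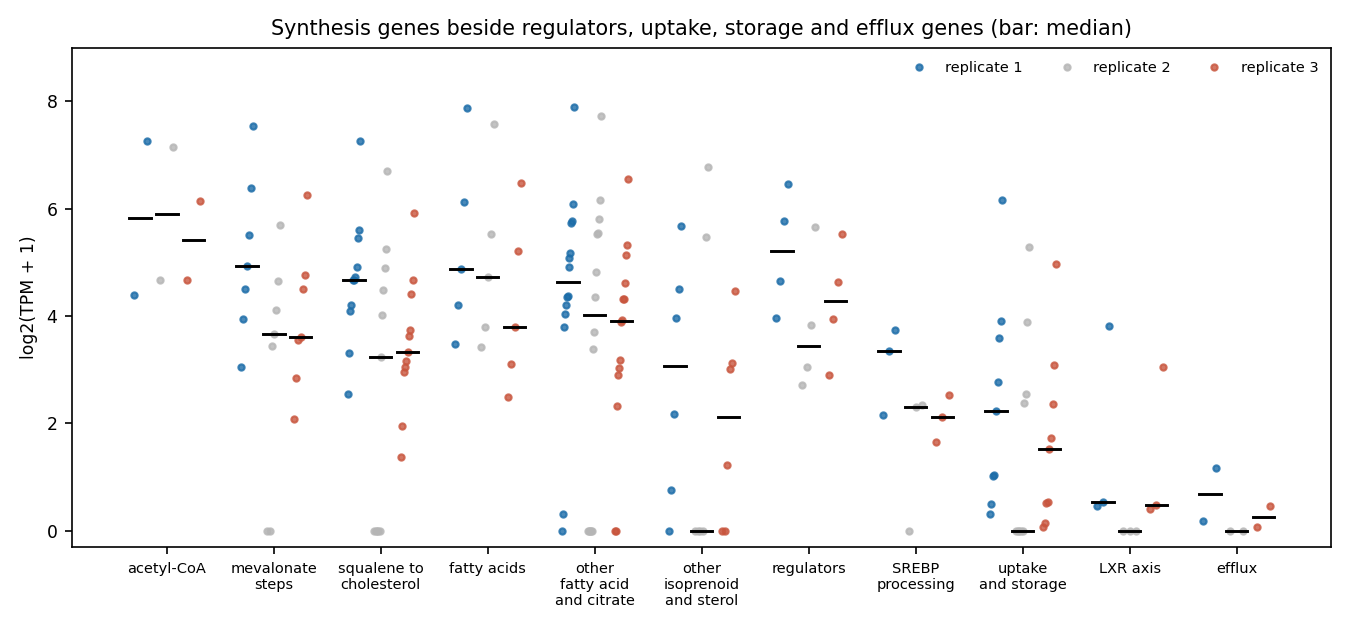
Level of each gene as log2(TPM + 1), grouped by role, for replicates 1, 2 and 3 (1 point per gene and library, black bar for the median of the role). The medians of the synthesis roles and of the other fatty acid and citrate genes stand above those of uptake and storage, LXR axis and efflux in replicates 1 and 3, while the many points of replicate 2 at 0 do not, at its depth, set these roles apart.

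Of 14 further fatty acid and citrate genes, 12 reached 1 TPM in both replicates 1 and 3 and 9 in every library, with median levels of 24.4, 15.7 and 14.0 TPM. Acsl5, which activates fatty acids with coenzyme A, had 1590, 16 and 580 counts (236, 210 and 93.4 TPM), close to the level of Scd2. Acsl4, the form that prefers arachidonate, had 608, 6 and 203 counts (52.5, 45.8 and 19.1 TPM). Fads2, the delta-6 desaturase, had 217, 2 and 116 counts (67.2, 54.8 and 39.0 TPM). Their relatives Acsl3 (17.6, 9.48 and 8.03 TPM) and Fads1 (19.5, 11.9 and 7.19 TPM) stood below the median of the list in each library. Me1, the cytosolic malic enzyme that makes NADPH for lipogenesis in liver and fat, had no count in any library, which allows up to 0.364 TPM in replicate 1.

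Across the 32 genes the order of levels was much the same in the deep libraries. Between replicates 1 and 3, Spearman's rho of TPM over the 32 genes was 0.95. With replicate 2 it was 0.74 for replicate 1 and 0.80 for replicate 3. The points are genes that share a library and a length, and rho is given as a description only. In replicate 2, 22 of the 32 genes had at most 3 counts, so neighbours in its order are not told apart.

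Pairs of genes were compared within each library as a log2 ratio of TPM, which is not affected by the scaling of the library. Scd2 was above Scd1 by 3.04 (exact 95% counting interval 2.87 to 3.22), 2.89 (1.17 to 5.26) and 2.78 (2.51 to 3.06). The mean was 2.90 ± 0.13 (SD, n = 3), with the intervals of all 3 libraries overlapping. Srebf2 was above Srebf1 by 1.84 (1.64 to 2.03), 2.76 (-0.28 to 8.28) and 1.65 (1.39 to 1.92), a mean of 2.08 ± 0.59 (n = 3). The interval of replicate 2, on 6 counts of Srebf2 and 1 of Srebf1, spans 0. Fasn was above Acaca by 2.75 (2.59 to 2.92), 2.23 (0.50 to 4.32) and 2.94 (2.69 to 3.20), a mean of 2.64 ± 0.37 (n = 3). Hmgcs1 was above Acat2 by 2.64 (2.40 to 2.88), 1.65 (-1.68 to 7.28) and 2.81 (2.40 to 3.25), a mean of 2.37 ± 0.62 (n = 3). Each of these ratios was positive in 3 of 3 libraries. Acly was above Acss2 by 2.93 (2.77 to 3.08), 2.53 (1.14 to 4.15) and 1.52 (1.35 to 1.69), a mean of 2.33 ± 0.72 (n = 3). For this pair the intervals of replicates 1 and 3 did not overlap, and exons of the other strand cover 9.12% of Acss2.

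For pairs with a gene at 0 in replicate 2, only replicates 1 and 3 gave a ratio. Sqle was above Abca1 by 8.31 (exact interval 6.75 to 10.59) and 8.69 (6.20 to 14.0), and Fasn was above Abca1 by 9.00 (7.45 to 11.28) and 9.52 (7.03 to 14.82), each on 3 and 1 counts of Abca1. In replicate 2, Sqle was at least 3.11-fold and Fasn at least 3.79-fold higher than Abca1, taken at 3 counts with the other gene's count as exact. Abcg1 was above Abca1 by 3.22 (1.30 to 5.71) in replicate 1 and by 2.93 (-0.70 to 8.65) in replicate 3, where the interval spans 0. Insig1 was above Insig2 by 2.55 (2.17 to 2.94) and 2.83 (2.19 to 3.54). With 3 libraries the smallest p of the exact sign-flip test, two-sided, is 0.25, and with 2 libraries it is 0.5; all 9 pairs sat at that smallest value. After Benjamini-Hochberg adjustment over the 9 pairs, the exact sign-flip p was 0.45 for the pairs with 3 libraries and 0.5 for those with 2, so no pair could pass 0.05 in this design.

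**Figure D3:**
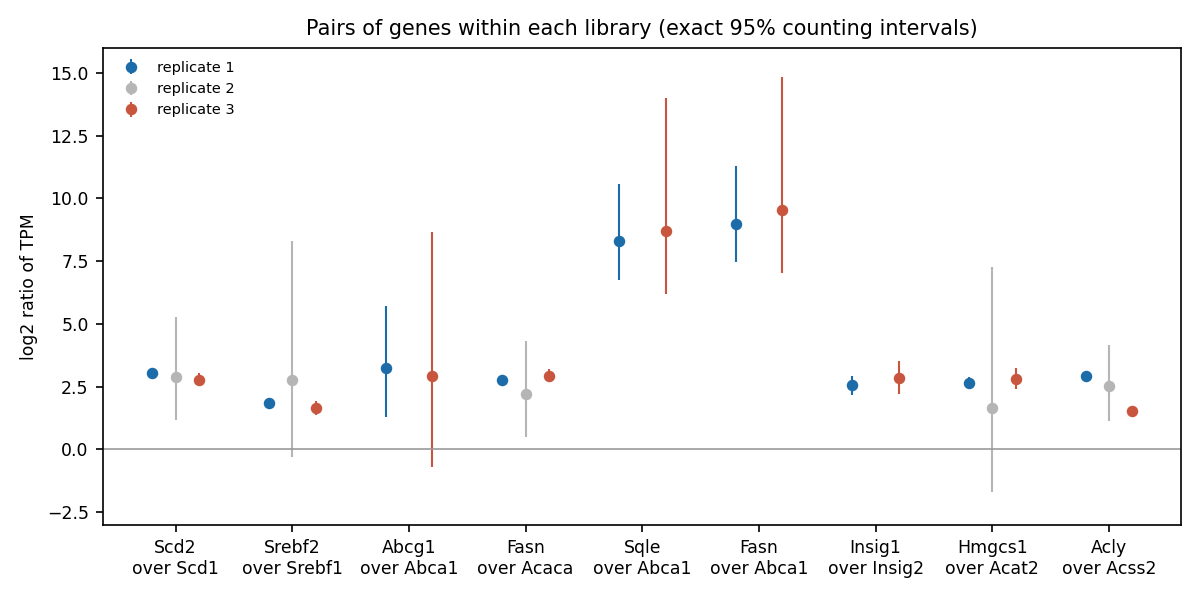
Log2 ratio of TPM for 9 pairs of genes in replicates 1, 2 and 3, with exact 95% counting intervals; pairs with a gene at 0 in replicate 2 have no grey point. Sqle and Fasn over Abca1 stand between 8.31 and 9.52, the other pairs between 1.52 and 3.22, and Acly over Acss2 is the pair whose replicate 1 and replicate 3 intervals do not overlap.

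Whether a gene varied between the 3 libraries beyond counting error was tested by a chi-square test on totals scaled by trimmed mean of M values (TMM), with Benjamini-Hochberg adjustment over 7406 genes. Of the 32 genes, 23 passed the filter on low counts. The 9 that did not were those with no count in replicate 2. The filter thus depended on 1 of the libraries that the test compares. Of the 23, 13 varied at an adjusted p under 0.05, against 62.2% of all genes tested. The share was 53.1% in genes with no opposite-strand exons and 74.1% in genes with them. The 13 were Acly, Acss2, Acat2, Hmgcs1, Pmvk, Sqle, Lss, Cyp51, Insig1, Acaca, Fasn, Scd2 and Stard4. The smallest chi-square adjusted p-values were 1.44e-30 for Scd2 and 2.70e-27 for Acss2. The calls changed with the libraries used. Without replicate 1 the count was 0 of 23, against 731 of 7147 over all genes, and without replicate 3 it was 0 of 23, against 266 of 7427. Without replicate 2 it was 11 of 30, against 4971 of 11003 over all genes. Insig1, Sqle, Acaca, Fasn and Stard4 were not among these 11. Hsd17b7, Ebp and Nsdhl were, though they were not tested over 3 libraries. With both the test and the scaling restricted to genes with no opposite-strand exons, 3 of 16 varied, Pmvk, Hmgcs1 and Scd2, against 636 of 4136 over all such genes.

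Replicates 1 and 3 were then set against each other gene by gene, among 11704 genes with at least 20 counts over both. This compares 2 libraries, not conditions. After TMM scaling, 10 of the 30 genes tested were higher in replicate 1, against 18.3% of all genes, and 1 was lower, against 25.9% of all genes (chi-square test, Benjamini-Hochberg adjusted p under 0.05). Genes with no opposite-strand exons were as a class higher in replicate 1, with a median log2 ratio of 0.25 (quartiles 0.00 and 0.46) over 7024 genes, and 23.9% of them were called higher. The 30 genes had a median log2 ratio of 0.26. The 23 of them with no opposite-strand exons had a median of 0.25, and all 23 ratios were above 0 under this scaling. The median of these 23 was thus that of all genes of the same class.

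Of the 10 genes called higher in replicate 1, 8 were among the 18 that lead from acetyl-CoA to cholesterol, and these 18 make up most of the 30 tested. The share called higher was 18.3% over all genes tested and 23.9% over genes with no opposite-strand exons. Scd2 was higher by a log2 ratio of 0.52 (chi-square adjusted p = 8.98e-21), Cyp51 by 0.47 (7.62e-10) and Hmgcs1 by 0.40 (8.15e-07). Pmvk was higher by 0.76, Acly by 0.24, Lss by 0.48, Ebp by 0.81, Nsdhl by 0.73, Acat2 by 0.58 and Hsd17b7 by 0.75. Ebp and Nsdhl lie on chromosome X, and the sex-linked Xist had 691 counts in replicate 1 and 3 in replicate 3. Whether that difference has a part in their ratios was not tested. The median log2 ratio was 0.47 over the 11 sterol genes, of which 5 were called higher, 0.34 over the 7 mevalonate genes, of which 3 were, 0.25 over the 5 fatty acid genes, of which 1 was, and 0.17 over the 4 regulators. The difference between these roles was not tested. Srebf2 and Fasn had ratios of 0.06 each and did not pass the test. The calls depend on the scaling. Scaled to library totals, 29 of the 30 were higher and 1 lower, while all 11704 genes split into 6795 higher and 2280 lower, with a median log2 ratio of 0.70 over all genes. Scaled by TMM over genes with no opposite-strand exons, 5 stayed higher (Pmvk, Cyp51, Hmgcs1, Scd2 and Ebp) and 1 was lower, while all genes split into 724 higher and 3360 lower, with a median of -0.06. Under that scaling Mvd, Idi1, Sc5d, Srebf2 and Fasn had ratios just below 0, between -0.12 and -0.01, so that the 23 were not all above 0. Of the genes with opposite-strand exons, Fdft1 (-0.11), Srebf1 (-0.30) and Acss2 (-1.34) were below 0 as well. Srebf1, below 0 under TMM over all genes, had a ratio of 0.46 by library totals. With TMM over all genes the split was 2146 higher and 3027 lower, with a median of 0.11.

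**Figure D4:**
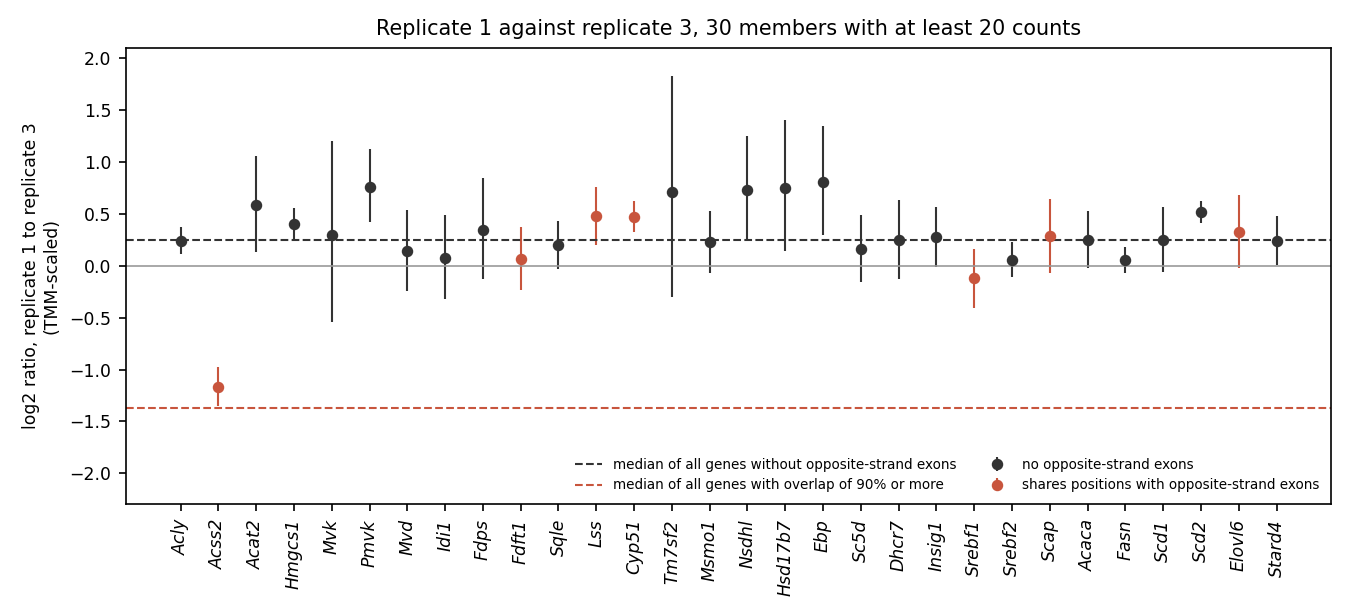
Log2 ratio of replicate 1 to replicate 3 after TMM scaling for the 30 genes with at least 20 counts, with exact 95% counting intervals; orange points share positions with exons of the other strand, and the lower dashed line is the median of genes overlapped over 90% or more of their length (-1.37), a class that holds none of the 30. Most points lie around the median of all genes without such exons (0.25), and Acss2 lies at -1.16.

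Acss2 went the other way. It had 438 counts in replicate 1 and 489 in replicate 3, a log2 ratio of -1.16 (exact 95% interval -1.35 to -0.97; chi-square adjusted p = 2.47e-35), and it was lower in replicate 1 under each of the 4 scalings run. The gene lies at 155517948 to 155585724 of chromosome 2 on the plus strand, and exons of Acss2os, Ggt7 and Gss on the minus strand cover 9.12% of its exonic length. Acss2os had 101, 0 and 142 counts and a log2 ratio of -1.50, Ggt7 86, 0 and 84 with -0.97, and Gss 82, 3 and 29 with 0.49. Over all genes, those overlapped for less than 50%, the class of Acss2, had a median log2 ratio of -0.56 (4155 genes), and those overlapped for 90% or more a median of -1.37 (238 genes). The part of overlapping transcripts in the Acss2 difference was not tested.

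Of the other 6 genes with opposite-strand exons, 5 had a ratio above 0. Exons of Ctsb, a lysosomal protease, cover 26.8% of the exonic length of Fdft1, and the log2 ratio of replicate 1 to replicate 3 was 0.07 for Fdft1 and 0.41 for Ctsb (464, 3 and 174 counts). Scap has 13.2% under exons of 5830462I19Rik, which had 1440, 9 and 1998 counts and a ratio of -1.48, against 0.28 for Scap. Lss has 3.53% under exons of 4930483K19Rik, which had 1003, 12 and 1480 counts and a ratio of -1.57, against 0.48 for Lss. In these last pairs the partner outnumbered the enzyme or escort gene per length: 4930483K19Rik had 811, 9.70 and 1196 counts per kb against 37.3, 0.371 and 13.3 for Lss, and 5830462I19Rik had 426, 2.66 and 591 against 31.2, 0.134 and 12.8 for Scap. For both pairs the partner and the gene had ratios of opposite sign, as did Acss2 and Gss. Cyp51 has 3.76% under exons of Akap9 (864, 25 and 970 counts, ratio -1.17) and Elovl6 has 0.53% under exons of Gm35986 (5, 0 and 4 counts). Srebf1, with 1.93% under exons of Rai1 (275, 4 and 152 counts, ratio -0.15), had a ratio of -0.12 (exact interval -0.41 to 0.16), which did not pass the test.

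In the wider lists, the same comparison called 2 of 5 tested uptake and storage genes higher in replicate 1, Npc2 by 0.34 and Scarb1 by 0.54. Over all genes tested the shares were 18.3% higher and 25.9% lower, and 23.9% and 6.93% in genes with no opposite-strand exons. The lists were not tested against these shares. Of 3 SREBP processing genes, 1 was called higher, Mbtps1 by 0.49. Of 12 further fatty acid and citrate genes, 4 were called higher, Acsl4 by 0.58, Acsl5 by 0.45, Mecr by 0.71 and Fads1 by 0.55, and 2 lower, Elovl1 (-0.86) and Oxsm (-0.74), which have 1.94% and 0.51% of their length under opposite-strand exons. Of 4 further isoprenoid and sterol genes, 1 was called higher, Lbr by 0.38, which has 9.24% of its length under opposite-strand exons. Outside lipid metabolism, all 6 T cell markers were called higher, with a median of 0.43, while Cd79a (-2.14), Csf1r (-1.56) and Alas2 (-1.54) were called lower. The Th1 marker Ifng was called higher (0.76), and Tbx21 (0.03) and Cd8b1 (-0.31) were not called. Cd68 and Itgax had too few counts for the test. Exons of the other strand cover 17.8% of Csf1r and 15.5% of Alas2. Of all genes overlapped for less than 50%, 49.9% were called lower. The part of overlapping transcripts in these calls was not tested.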

How the data were processed

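RNA of 3 mouse Th1 libraries, 1 group, was analysed. The deposited values are raw counts of fragments per gene, which the authors made with featureCounts 1.4.6-p4, per the file headers: exon fragments of pairs whose ends both mapped, strand setting 1, GENCODE M13, alignments named star2. Per the labels, coordinates are on mm10. The deposited tables also give gene length, another value used here for TPM. Kit, trimming and aligner version: not given in the sources used here.

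CPM, TPM and FPKM were computed here from the deposited counts. Symbols matched 50376 of 50600 genes. Exonic overlap was computed with bedtools 2.31.1; 8189 genes shared positions with the other strand. TMM factors (edgeR 4.0.16) over all genes scaled the chi-square tests, whose p-values were adjusted by Benjamini-Hochberg over every gene tested, with filterByExpr for 3 libraries and at least 20 counts for replicate 1 against replicate 3. In replicate 2 expected counts are small and that test is approximate. DESeq2 1.42.0 size factors were an alternative. Intervals are exact Clopper-Pearson for ratios and exact Poisson for levels. A quasi-likelihood test needs 2 groups and was not run. R 4.3.3, Python 3.11.15 and scipy 1.17.1 were used.

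The 32 genes, the 5 wider lists of 35 genes and the tests were chosen with earlier results of these data known. The rule for named genes took all 32, partners that overlap 1% or more of a gene's exonic length (Gm35986 and the host of Csf1r were added), and any gene of the wider and marker lists. A marker gene of these lists is not reported here.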

Additional observations from a re-analysis of the deposited data

How the results depend on the processing

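Replicate 2 limits every statement on single genes, and replicates 1 and 3 held nearly all of the counts. In place of 13 of the 23 genes tested, 8 varied between the 3 libraries with DESeq2 size factors and all 23 with library totals. Over all 7406 genes tested, 3987 and 6547 varied, in place of 4609. In genes with no opposite-strand exons, 3 of 16 varied, against 636 of 4136 over all such genes. Leaving out replicate 1 or replicate 3 gave 0 genes of the 32, with 731 and 266 over all genes, and leaving out replicate 2 gave 11 and 4971. These 11 were not all among the 13. Without replicate 1 or 3 the test rests on the shallow replicate 2 and has little power. For replicate 1 against replicate 3, the genes called higher were 29 with library totals and 5 with TMM from genes with no opposite-strand exons, in place of 10, and over all genes 6795 and 724 in place of 2146. The synthesis minus efflux difference was 6.07 with a pseudocount of 0.1 and 3.02 in FPKM, and 3.70 to 4.04 leaving out each library. The genes at 1 TPM in every library numbered 23 to 30 leaving out each library. The 9 pair ratios stayed above 0 with 0.5 count added, without division by length and without each library, but their size moved: without division by length, Abcg1 over Abca1 was 1.73 and Acly over Acss2 1.38. The direction of single genes and of the split over all genes in replicate 1 against replicate 3 depended on the scaling, as given above for the 32 genes. No paired analysis was possible because there is 1 group.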
